A study of Mus musculus with 4 samples.

Results

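The heat shock proteins and their partner chaperones were examined in LPS-stimulated mouse macrophages cultured with or without galectin-1. The genes were chosen by symbol alone: the HSP70, HSP110, HSP90 and small heat shock families, HSP60 and HSP10, the J-proteins (Dnaj genes), the subunits of the chaperonin CCT, the BAG co-chaperones and Hyou1. This gave 89 of the 23284 gene symbols in the files. Of these, 54 were placed in the cytosol and nucleus, 14 in the endoplasmic reticulum and 8 in the mitochondria, and 13 encode vesicle, membrane, ciliary or unplaced proteins.

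The cells were primary macrophages grown in culture from the marrow of wild-type mice, a model of tissue macrophages. Every culture, the controls included, first received lipopolysaccharide (LPS), a bacterial ligand of the receptor TLR4, for 1 h at a concentration of 1 µg/ml. The vehicle group was then cultured with phosphate-buffered saline for 24 h. The galectin-1 group received the recombinant mouse protein, a secreted lectin that binds galactose-containing glycans, over the same 24 h. Each group had 2 libraries. The sources used here give neither the age and sex of the mice nor the dose of galectin-1, nor do they state whether LPS stayed in the medium over the 24 h, and no culture without LPS was analysed here. The labels do not state whether replicates were separate cultures or animals, and p-values then reflect just the scatter of these libraries, which may be technical.

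Chaperones bind unfolded stretches of other proteins and release them in cycles driven by ATP. J-proteins deliver clients to HSP70 and stimulate its ATPase, BAG and HSP110 proteins exchange its nucleotide, HSP90 takes over late folding intermediates, and barrel-shaped chaperonins enclose whole proteins. The heat-inducible members are induced by the heat shock factor HSF1, those of the endoplasmic reticulum by the unfolded protein response, and in macrophages the LPS receptor complex itself needs Hsp90b1 to mature.

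The values were FPKM, fragment numbers divided by transcript length and library size, so levels can be set side by side between genes. Library totals were 541138 to 557661 FPKM. The steps between low values gave depths of 0.978, 1.02 and 0.874 for vehicle replicate 2 and galectin-1 replicates 1 and 2 relative to vehicle replicate 1, and nothing in the values gives the number of reads. Defining macrophage markers were high in every library, with 444 to 482 FPKM of Adgre1 and 363 to 406 FPKM of Csf1r. The summed level of 8 macrophage markers was 9342 to 9346 FPKM with vehicle and 10120 to 10136 FPKM with galectin-1. Lyz2 alone had means of 5701.5 and 6246.0 FPKM. None of the 8 passed in limma: 7 differences were positive, and Mertk went the other way (means of 19.05 and 16.86 FPKM, log2 difference -0.17). The 8 dendritic cell markers summed to 24.3 to 24.4 FPKM with vehicle and 18.99 to 19.4 FPKM with galectin-1. Of these 4 were tested and 1 was called lower (Fscn1, limma adjusted p = 0.0425). The 8 fibroblast markers summed to 16.4 to 16.6 and 20.4 to 20.6 FPKM, with 5 of 8 tested. None of the 5 passed, and all 5 differences were positive, with a median of 0.24. For 4 of the 5 galectin-1 was higher without overlap, beside 29.1% of all tested genes. Ltf and Elane of the neutrophil list and Cd3e and Cd3g of the T and NK cell list were at 0 in all libraries. The neutrophil list summed to 1.34 to 2.92 FPKM, mostly S100a8 (0.806 to 2.735 FPKM). The B cell list summed to 2.615 to 3.598 FPKM, mostly Cd79b (2.415 to 3.372 FPKM). The T and NK cell list summed to 3.59 to 4.24 FPKM, mostly Cd4 (3.456 to 4.188 FPKM). The nuclear RNAs Neat1 and Malat1 summed to 192 to 203 FPKM with vehicle and 112 to 123 FPKM with galectin-1, and Neat1 passed as lower (limma adjusted p = 0.00174). Of 9 immediate-early genes listed as a sign of handling, 8 were tested and none passed in limma. An unadjusted p under 0.05 was found for 6 of the 8, beside 23.2% of all tested genes. For the same 6 the groups did not overlap, beside 55.4% of all tested genes. Of the 6, 3 were higher with galectin-1 (Jun, Junb and Ier3) and 3 lower (Fos, Ier2 and Dusp1). Their log2 differences ranged from -0.38 for Ier2 to 0.24 for Ier3. The exons of 27 of the 89 members overlap those of a gene on the other strand, among them Tcp1, Dnaja1, Hsp90b1, Dnajc19 and Dnajc30, and whether counting used strand is not stated, so their values are less certain. The part of these markers in the differences below was not tested, and in such bulk samples fewer cells of a type and less RNA per cell cannot be told apart.

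Chaperone messages were dominated by a few constitutive genes. The 89 members summed to 3562 and 3556 FPKM with vehicle and to 3746 and 3724 FPKM with galectin-1, which was 0.644% and 0.657% of the library total against 0.672% and 0.671%. Hspa8, the constitutive cytosolic HSP70, accounted for 28.9% to 30.1% of that sum in each library and Hspa5, its counterpart in the endoplasmic reticulum also called BiP, for 12.7% to 13.2%. Only 6 members had a mean of at least 100 FPKM, and besides these 2 genes they were Hsp90ab1, Dnaja2, Hsp90b1 and Hsp90aa1. The minimum for a test, 1 FPKM on average across the libraries, was reached by 67 members: 39 of 54 in the cytosol and nucleus, 14 of 14 in the endoplasmic reticulum, 8 of 8 in the mitochondria and 6 of 13 others. Of the 22 members below it, 9 were listed at 0 in all 4 libraries, among them Hspb2, Hspb3 and Hspb8, small heat shock proteins best known from muscle, and Cct6b, the testis form of a CCT subunit.

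With galectin-1, Hsp90aa1 rose, no member fell and the other 66 tested members did not pass in limma (Benjamini-Hochberg adjusted p under 0.05). Of all 9380 tested genes 1.19% were called, 0.608% higher and 0.586% lower. Differences were positive for 36 members and negative for 31, or 53.7% positive beside 50.7% of all tested genes. An unadjusted p under 0.05 was found for 12 members, 8 higher and 4 lower, where 23.2% of all tested genes had one. The groups did not overlap for 32 of 67 members, 21 higher and 11 lower with galectin-1, which is 47.8% beside 55.4% of all tested genes (29.1% higher and 26.2% lower). The median log2 difference was 0.01 for the 67 members and 0.0024 for all tested genes, both close to 0. Every log2 difference is of FPKM with 1 added, which shrinks the differences of low genes.

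Hsp90aa1, the stress-inducible isoform of cytosolic HSP90 (mm10 chromosome 12, 110691036 to 110696395, minus strand), had 96.4 and 98.6 FPKM in the vehicle libraries and 116 and 114 FPKM in the galectin-1 libraries. Both galectin-1 values lay above both vehicle values, and the gap was larger than the spread within either group. The means were 97.5 ± 1.55 and 115 ± 1.45 FPKM (SD, n = 2 per group), an increase of 18.2%, with a log2 difference of 0.24 (standard error 0.03, limma adjusted p = 0.0446). The limma adjusted p was 0.0732 when each library was scaled to the same sum, 0.0617 after quantile normalization, 0.1304 with no filter on low values, 0.140 without the trend and 0.176 to 0.221 with 1 library left out. The sign was the same in each of these fits.

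Hsp90ab1, the constitutive isoform (chromosome 17, 45567778 to 45573261, minus strand), had 210.0 and 211 FPKM with vehicle and 229.7 and 233 FPKM with galectin-1. The groups were apart here too, by a smaller proportion: the means differed by 9.70%, with a log2 difference of 0.13 (95% confidence interval 0.06 to 0.20, limma adjusted p = 0.0831). The ratio of Hsp90aa1 to Hsp90ab1, which is the same whatever single factor a library is multiplied by, was 0.459 and 0.467 with vehicle and 0.507 and 0.492 with galectin-1. The share of the inducible isoform in cytosolic HSP90 message was larger in both galectin-1 libraries than in both vehicle libraries; with 2 against 2 libraries a permutation test cannot go below p = 0.333, so none was run.

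Hspa8 (chromosome 9, 40801276 to 40805202, plus strand) had 1029 and 1036 FPKM with vehicle and 1106 and 1122 FPKM with galectin-1. The groups did not overlap, and the difference of 7.89% had a log2 value of 0.11 (95% confidence interval 0.05 to 0.17, limma adjusted p = 0.0949). The heat-inducible HSP70 genes were low and their groups overlapped. Hspa1a had 2.44 and 2.12 FPKM with vehicle and 2.56 and 2.36 FPKM with galectin-1. Hspa1b had 5.55 and 6.04 FPKM with vehicle and 4.43 and 6.21 FPKM with galectin-1. These neighbouring genes on chromosome 17 are near-identical, and the sources used here do not state how reads were divided between them, so their separate values are uncertain. Their sum, which does not depend on that division if reads were not discarded, was 7.995 and 8.164 FPKM with vehicle and 6.99 and 8.57 FPKM with galectin-1. The log2 differences were 0.08 for Hspa1a (95% confidence interval -0.16 to 0.32) and -0.12 for Hspa1b (-0.46 to 0.23), ranges that span both signs.

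Hsph1, an HSP110 nucleotide exchange factor, had 3.25 and 3.02 FPKM with vehicle and 3.05 and 3.91 FPKM with galectin-1 (limma adjusted p = 0.605). Dnajb1, the J-protein partner of inducible HSP70, had 9.16 and 8.88 FPKM with vehicle and 10.2 and 9.79 FPKM with galectin-1, apart by 10.7% of the mean (log2 difference 0.13, limma adjusted p = 0.252). Dnaja1, an abundant J-protein of the cytosol, had 54.6 and 55.0 FPKM with vehicle and 57.7 and 57.5 FPKM with galectin-1 (0.07, limma adjusted p = 0.294), also without overlap. Dnaja2, its relative, had 170.0 and 168 FPKM with vehicle and 175 and 169 FPKM with galectin-1, overlapping levels. Hspb1, the small heat shock protein HSP27, lay below the test minimum with 0.310 and 0.427 FPKM with vehicle and 0.804 and 0.356 FPKM with galectin-1. Of the 7 small heat shock genes of the cytosol 2 were tested, Hspb6 with overlapping groups and Hspb9, best known from testis. Hspb9 had 0.694 and 1.003 FPKM with vehicle and 1.21 and 1.43 FPKM with galectin-1, so low that its mean barely met the minimum. The vehicle mean of 0.848 FPKM lay below the minimum, so Hspb9 was tested only through its galectin-1 values. It is among the members counted above as higher without overlap and by unadjusted p. Its log2 difference was 0.33 (95% confidence interval 0.01 to 0.65, limma adjusted p = 0.204). Across the cytosolic J-proteins, 15 of 20 were tested and none passed; 6 differences were positive and 9 negative, with a median of -0.02. The lowest of these belonged to Dnajc2, a J-protein at the ribosome, with 15.1 and 14.5 FPKM with vehicle and 11.5 and 13.5 FPKM with galectin-1, without overlap (-0.23, limma adjusted p = 0.168).

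The BAG proteins are nucleotide exchange factors and adaptors of HSP70, and 4 of 6 were tested. Bag5, whose product carries several BAG domains, had 5.48 and 5.35 FPKM with vehicle and 4.13 and 4.11 FPKM with galectin-1. Both galectin-1 libraries lay below both vehicle libraries, with replicates close together in each group. Its log2 difference of -0.33 (standard error 0.07, limma adjusted p = 0.0848) was the lowest among the 39 tested cytosolic and nuclear members and missed the threshold. Bag3, which links HSP70 to autophagy and is itself induced by heat, had 12.9 and 12.97 FPKM with vehicle and 12.9 and 14.4 FPKM with galectin-1. Its groups overlapped (log2 difference 0.07, limma adjusted p = 0.572). Bag6, a holdase for membrane proteins, had 40.0 and 37.5 FPKM with vehicle and 43.4 and 42.2 FPKM with galectin-1, without overlap (0.14, limma adjusted p = 0.159). Over all 39 tested members of the cytosol and nucleus, 23 differences were positive and 16 negative, with a median of 0.02, and of -0.0031 with each library scaled to the same sum. The groups were apart for 12 of the 39 with galectin-1 higher and for 5 with galectin-1 lower, beside 29.1% and 26.2% of all tested genes.

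**Figure D1:**
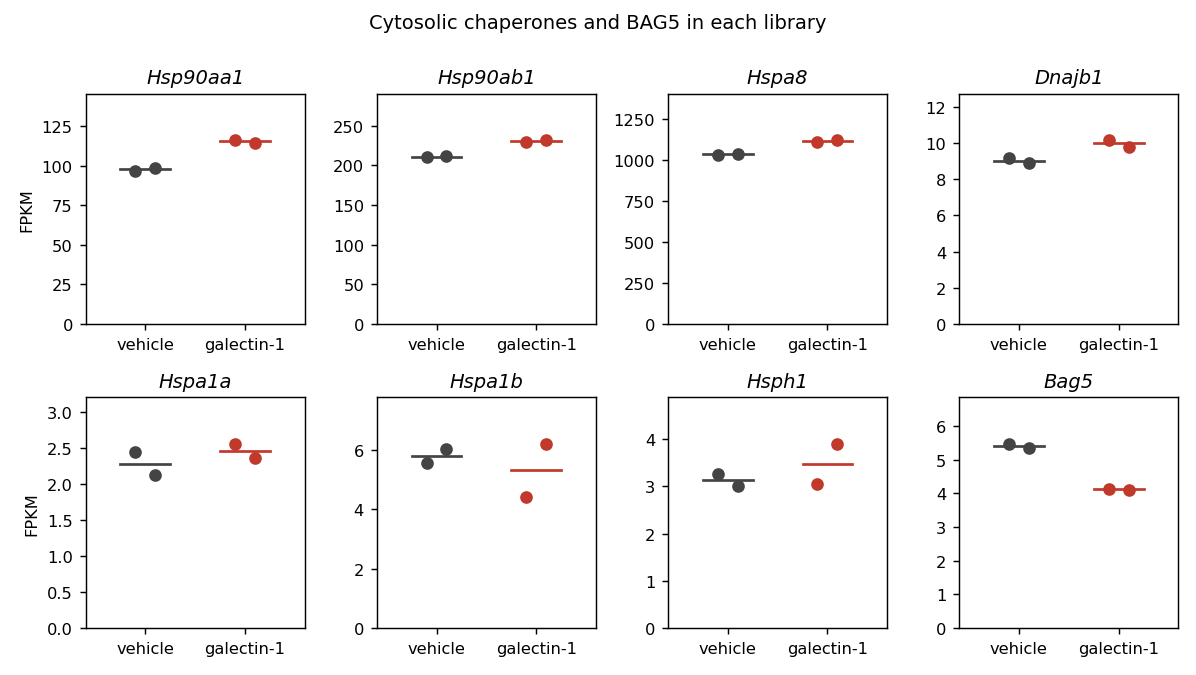
FPKM of 8 cytosolic members in each library (vertical axes from 0), with vehicle in grey and galectin-1 in red; points are libraries and lines are group means, n = 2. The groups are apart for Hsp90aa1, Hsp90ab1, Hspa8, Dnajb1 and Bag5 and overlap for Hspa1a, Hspa1b and Hsph1.

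The cytosolic chaperonin CCT, a double ring that folds actin and tubulin among other clients, is built from 8 different subunits in equal numbers. Their genes were expressed within a narrow range, between 39.9 FPKM of Cct7 and 82.2 FPKM of Cct5 in single libraries. The highest subunit was 1.96 and 1.86 times the lowest in the vehicle libraries and 2.06 and 1.99 times in the galectin-1 libraries. Tcp1, the first subunit to be named, had 54.3 and 53.1 FPKM with vehicle and 60.1 and 54.3 FPKM with galectin-1, overlapping levels (log2 difference 0.09, limma adjusted p = 0.393). None of the 8 passed. The median difference was 0.06. Differences were positive for 6 subunits, and for 5 when each library was scaled to the same sum or after quantile normalization. Cct6a went the other way, with 53.4 and 54.6 FPKM with vehicle and 50.1 and 50.1 FPKM with galectin-1 (-0.11, limma adjusted p = 0.164). Cct7 was also negative (-0.01), with overlapping groups. The exons of Cct6a overlap those of Psph on the other strand, and those of Cct7 overlap Pradc1. Tcp1 and Cct8, with positive differences, have such overlaps too. Summed over the 8 genes, the level was 496 and 492 FPKM with vehicle and 511 and 503 FPKM with galectin-1, without overlap. As a share of the library total, the sum was 0.0897% and 0.0910% with vehicle and 0.0915% and 0.0906% with galectin-1, which overlapped.

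**Figure D2:**
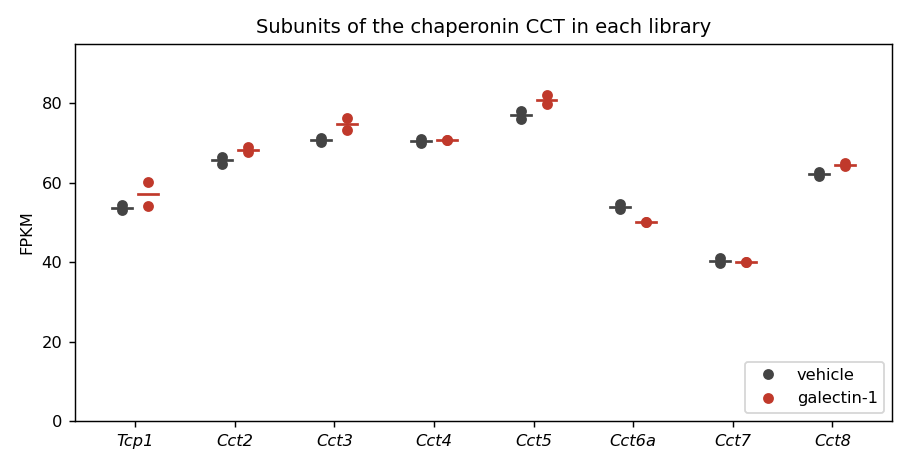
FPKM of the 8 expressed CCT subunit genes in each library (vertical axis from 0), with vehicle in grey and galectin-1 in red; points are libraries and short lines are group means, n = 2. Cct6a is the subunit whose galectin-1 libraries lie below both vehicle libraries.

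In the endoplasmic reticulum none of the 14 members passed. The HSP70, HSP110 and HSP90 genes of this compartment (Hspa5, Hspa13, Hyou1 and Hsp90b1) were higher in both galectin-1 libraries than in both vehicle libraries, 4 of 4 without overlap, and had positive differences under each of the 3 other scalings. Of all tested genes 29.1% were higher without overlap, and 48.4% of those with a mean of at least 100 FPKM, where Hspa5 and Hsp90b1 lie. Of the 10 J-protein genes, 3 differences were positive and 7 negative, with a median of -0.07. Over all 14, the groups were apart for 6 with galectin-1 higher and for 4 with galectin-1 lower, beside 29.1% and 26.2% of all tested genes. The median over all 14 was 0.01, and -0.02 with each library scaled to the same sum.

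Hspa5 encodes BiP, the HSP70 that pulls proteins into the lumen and holds the stress sensors inactive (chromosome 2, 34772090 to 34776529, plus strand). It had 454 and 467 FPKM with vehicle and 495 and 486 FPKM with galectin-1, means of 460.4 ± 9.19 and 490.5 ± 5.99 FPKM (SD, n = 2 per group). The groups were apart by 6.53% of the vehicle mean, a log2 difference of 0.09 (95% confidence interval 0.02 to 0.16, limma adjusted p = 0.148). Hsp90b1, the HSP90 of the lumen known as GRP94 (chromosome 10, 86690841 to 86705444, minus strand), had 144 and 143 FPKM with vehicle and 149 and 153 FPKM with galectin-1 (0.07, limma adjusted p = 0.263). Its groups were apart by 4.83%. Its exons overlap those of 1810014B01Rik on the other strand. Hyou1, an HSP110 that exchanges the nucleotide of BiP, had 14.5 and 14.7 FPKM with vehicle and 16.6 and 15.3 FPKM with galectin-1 (0.12, limma adjusted p = 0.297). Hspa13, a microsomal relative of BiP, had 5.83 and 5.82 FPKM with vehicle and 6.89 and 6.07 FPKM with galectin-1 (0.13, limma adjusted p = 0.378). The ratio of Hspa5 to Hsp90b1 was 3.14 and 3.26 with vehicle and 3.32 and 3.19 with galectin-1, so the balance of the lumenal pair overlapped between the groups.

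Among the J-proteins of the compartment, Dnajb9, a partner of BiP in degradation and in restraint of the sensor IRE1, had 7.37 and 7.48 FPKM with vehicle and 8.22 and 8.51 FPKM with galectin-1 (log2 difference 0.15, limma adjusted p = 0.215). Dnajc3, known as P58IPK, had 8.84 and 9.41 FPKM with vehicle and 10.0 and 9.78 FPKM with galectin-1 (0.11, limma adjusted p = 0.360). Both genes were higher in each galectin-1 library than in each vehicle library. Dnajb11, the most abundant J-protein here, had 44.4 and 41.1 FPKM with vehicle and 43.5 and 44.7 FPKM with galectin-1, overlapping levels (limma adjusted p = 0.635). Dnajb14, anchored in the membrane, had 5.91 and 5.91 FPKM with vehicle and 5.06 and 5.07 FPKM with galectin-1 (-0.19, limma adjusted p = 0.175). It was the lowest difference of the compartment, and the membrane proteins Dnajc16 (-0.17) and Dnajc18 (-0.14) likewise had galectin-1 libraries below both vehicle libraries.

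Promoters are shown for members of this compartment that hold the ER stress element, through which the sensor ATF6 acts on chaperone genes. They were chosen for the shared motif with their differences, of the same sign, already known. That shared sign is therefore no test of the motif. RefSeq windows (GRCm38.p6, the mm10 build, 250 bases before to 50 after a start) were found for 72 of the 89 members, and none for Hsp90aa1, Hsp90ab1 or Hspa8. The element was searched on both strands as CCAAT, 9 bases of any kind and CCACG, a motif that itself contains the shorter CCAAT box. It was found in 0.119% of 32851 windows of all genes and in 3 of the 12 windows of endoplasmic reticulum members. No window of another compartment's members held it. Bases before each start are printed 5′ to 3′ on the gene's strand with the whole element in capitals. Exon bases of GENCODE, which begins Hspa5 and Hsp90b1 further upstream than RefSeq, are left out. The Hspa5 element lies within such an exon and is shown with 5 bases on each side.
Hspa5, chr2:34772020-34772048, plus strand: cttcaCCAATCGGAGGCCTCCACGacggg
Hsp90b1, chr10:86705510-86705694, minus strand: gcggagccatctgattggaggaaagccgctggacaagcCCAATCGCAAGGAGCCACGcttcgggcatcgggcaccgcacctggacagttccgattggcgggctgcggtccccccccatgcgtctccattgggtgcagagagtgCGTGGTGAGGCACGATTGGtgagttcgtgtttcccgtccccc
Dnajc3, chr14:118937682-118937931, plus strand: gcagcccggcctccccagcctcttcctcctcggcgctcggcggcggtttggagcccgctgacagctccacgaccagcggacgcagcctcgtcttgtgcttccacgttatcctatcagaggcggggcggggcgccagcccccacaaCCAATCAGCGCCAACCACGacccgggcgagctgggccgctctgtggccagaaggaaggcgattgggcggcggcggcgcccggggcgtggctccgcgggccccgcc

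Counted from the RefSeq start, the Hspa5 element begins at position -65, the Dnajc3 element at -105, and Hsp90b1 holds 2, at -212 and, on the opposite strand, at -107. The log2 differences were 0.09 for Hspa5, 0.07 for Hsp90b1 and 0.11 for Dnajc3. Over all tested genes 11 held the element, including Calr, the lectin chaperone calreticulin (0.03), and Canx, its membrane relative calnexin (0.13). None of the 11 passed. Differences were positive for 7, or 63.6%, beside 50.7% of all tested genes, and negative for 4. Creld2, a folding factor, had the lowest value (-0.13). A match is a description of letters and not evidence of binding.

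Of a wider list of 29 genes of endoplasmic reticulum folding and the unfolded protein response, 26 were tested and none passed in limma. An unadjusted p under 0.05 was found for 3, all higher, beside 12.2% of all tested genes in that direction. The median was 0.01, with 14 positive and 12 negative differences. Groups were apart for 15 of 26, or 57.7%, beside 55.4% of all tested genes. The smallest unadjusted p belonged to Canx, at 70.4 ± 0.357 FPKM with vehicle and 77.1 ± 2.29 FPKM with galectin-1 (limma adjusted p = 0.129). Next was Herpud1, a degradation factor induced by the response, with 5.40 ± 0.0583 and 6.23 ± 0.0890 FPKM (0.18, limma adjusted p = 0.193). The transcription factor of the IRE1 branch, Xbp1, had 90.4 ± 0.911 and 87.9 ± 1.46 FPKM (-0.04), and Ddit3, the stress factor CHOP, had 53.7 ± 2.07 and 48.9 ± 4.45 FPKM (-0.14).

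**Figure D3:**
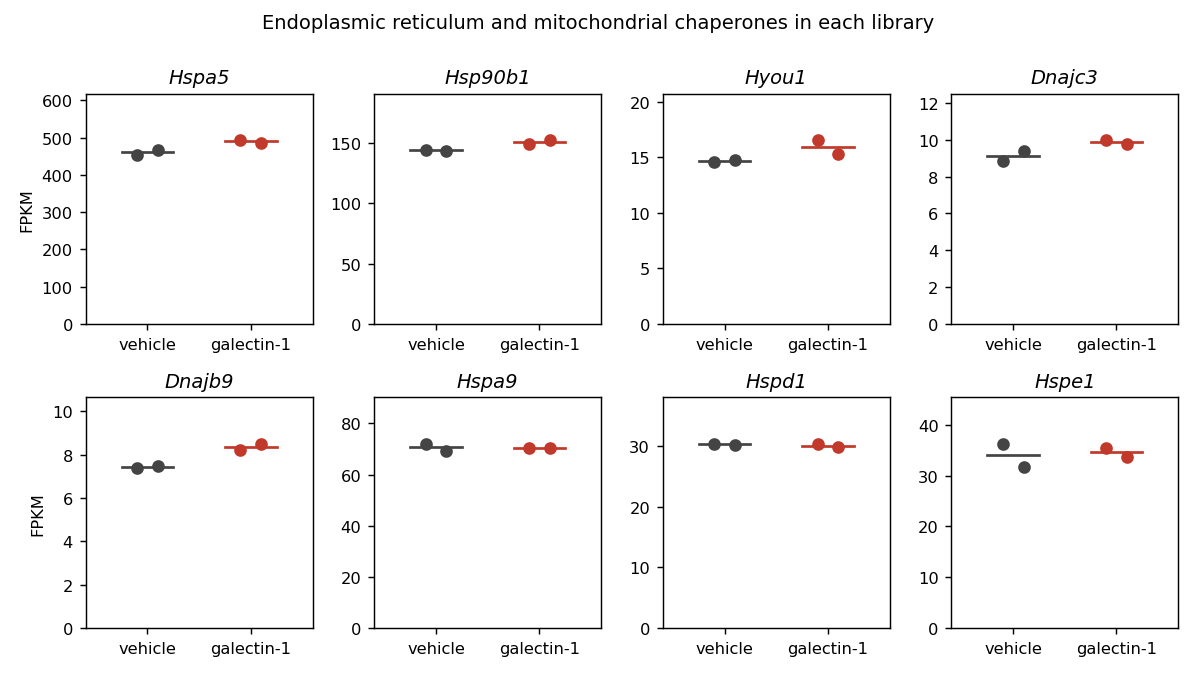
FPKM of 5 endoplasmic reticulum and 3 mitochondrial members in each library (vertical axes from 0), with vehicle in grey and galectin-1 in red; points are libraries and lines are group means, n = 2. The galectin-1 libraries lie above both vehicle libraries for the 5 endoplasmic reticulum genes, while Hspa9, Hspd1 and Hspe1 overlap.

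The main chaperones of the mitochondrial matrix had differences near 0. Of the 8 members placed in the mitochondria none passed, and 7 differences were negative. The groups were apart for 2, both lower, beside 26.2% of all tested genes. Hspa9, the matrix HSP70 called mortalin, had 72.1 and 69.1 FPKM with vehicle and 70.6 and 70.3 FPKM with galectin-1. Hspd1, the matrix chaperonin HSP60, had 30.4 and 30.1 FPKM with vehicle and 30.3 and 29.8 FPKM with galectin-1. Hspe1, its lid HSP10, had 36.3 and 31.7 FPKM with vehicle and 35.5 and 33.7 FPKM with galectin-1. All 3 groups overlapped. The 95% confidence intervals of the log2 differences ran from -0.10 to 0.09 for Hspa9, from -0.11 to 0.09 for Hspd1 and from -0.15 to 0.20 for Hspe1 (limma adjusted p from 0.849 to 0.968).

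Hspd1 and Hspe1 stand head to head on chromosome 1. RefSeq gives Hspe1 a start at 55088148 on the plus strand and Hspd1 2 starts on the minus strand, at 55087932 and, past the Hspe1 start, at 55088243. A heat shock element is shown because it lies before the Hspe1 start and before the first of the Hspd1 starts. From the other Hspd1 start it lies inside the gene, and the window of that start did not hold the element. It was searched as the units GAA, TTC and GAA, or TTC, GAA and TTC, each parted from the next by NN, on both strands. The forms are reverse complements of each other. It occurred in 0.603% of all windows. The 2 overlapping matches are in capitals with 5 bases on each side, on the plus strand.
Hspd1 and Hspe1, chr1:55088054-55088081, plus strand: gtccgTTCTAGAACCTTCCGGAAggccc

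The matches span 55088059 to 55088076, so that they begin 127 bases from the first Hspd1 start and end 72 bases from the Hspe1 start. The ratio of Hspd1 to Hspe1 message was 0.837 and 0.951 with vehicle and 0.854 and 0.883 with galectin-1, overlapping values. Besides this pair, the windows of Hsph1 and Dnajb6, a J-protein that keeps aggregates soluble, held the element, and their log2 differences were 0.11 and 0.03. Those of the heat-inducible Hspa1a, Hspa1b and Bag3, and of Dnajb1, Dnaja1 and Hspb1, held no match. The search was for this strict form within short windows, so a missing match does not exclude a heat shock element. Over all tested genes 43 held the element in the searched form, none of which passed. Of the 43 differences 25 were positive, or 58.1%, beside 50.7% of all tested genes.

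As a share of the summed FPKM of all members, the 8 mitochondrial genes made up 6.63% and 6.16% with vehicle and 5.98% and 5.73% with galectin-1. These shares did not overlap, but the summed levels did, at 236 and 219 FPKM with vehicle and 224 and 213 FPKM with galectin-1, while the sum of all members was higher with galectin-1.

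The 5 J-proteins placed in the mitochondria all had negative differences, with a median of -0.14, and none passed. Placement was by hand and a few J-proteins have more than 1 location, so the shared sign depends on it. Dnajc19, tied to the import motor, had 27.0 and 21.6 FPKM with vehicle and 21.5 and 21.6 FPKM with galectin-1 (log2 difference -0.16, limma adjusted p = 0.391). Vehicle replicate 2 lay close to both galectin-1 libraries and vehicle replicate 1 above them. Without vehicle replicate 1 the median of all 8 mitochondrial members was -0.0034, against -0.10 in the full fit. Dnajc15, also of the import motor, had 35.8 and 33.1 FPKM with vehicle and 34.3 and 28.3 FPKM with galectin-1, overlapping levels. Dnajc30 had 7.93 and 9.04 FPKM with vehicle and 8.58 and 5.89 FPKM with galectin-1, and galectin-1 replicate 2 was the low library. Without galectin-1 replicate 2 the compartment's median was -0.0025. Dnajc11, a protein of the cristae junction machinery, had 15.8 and 15.4 FPKM with vehicle and 14.2 and 14.9 FPKM with galectin-1, without overlap (-0.09, limma adjusted p = 0.352). Of a list of 14 further genes of mitochondrial folding and proteolysis, all were tested and none passed in limma. An unadjusted p under 0.05 was found for 1, beside 23.2% of all tested genes. Differences were negative for 10, and the median was -0.07. Groups were apart for 4, or 28.6%, beside 55.4% of all tested genes. Hscb, a J-protein of iron-sulphur cluster assembly, had 6.12 ± 0.903 FPKM with vehicle and 4.74 ± 0.251 FPKM with galectin-1 (-0.30, limma adjusted p = 0.165). Clpb, a disaggregase, followed by unadjusted p with 2.44 ± 0.295 and 2.07 ± 0.00643 FPKM (-0.16, limma adjusted p = 0.388).

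Of the members outside these compartments 6 were tested and none passed. Dnajc27 had means of 0.997 FPKM with vehicle and 1.09 FPKM with galectin-1 (log2 difference 0.06). It met the test minimum only through its galectin-1 values and is among the positive differences counted above. Dnajc5, the cysteine string protein of secretory vesicles (chromosome 2, 181518858 to 181552886, plus strand), had 17.8 and 18.8 FPKM with vehicle and 23.3 and 22.7 FPKM with galectin-1. The groups were well apart, by 26.1% of the vehicle mean, a larger proportion than for Hsp90aa1. Its log2 difference of 0.32 (standard error 0.05, 95% confidence interval 0.19 to 0.45) had a limma adjusted p of 0.0555 and so missed the threshold. It passed at a mean of at least 5 FPKM (adjusted p = 0.0382), with robust moderation (0.0266), without small RNA entries (0.0275) and with the replicate number as a block (0.0447). The limma adjusted p was 0.143 with no filter, 0.138 without the trend, 0.0776 with libraries scaled to the same sum, 0.0712 after quantile normalization and 0.186 to 0.230 with 1 library left out. Dnajc4 had 8.42 and 10.2 FPKM with vehicle and 11.05 and 10.4 FPKM with galectin-1, and Dnajc25 had 2.44 and 2.199 FPKM with vehicle and 2.54 and 2.95 FPKM with galectin-1. Neither pair of groups overlapped, and the log2 differences were 0.19 and 0.17. Dnajc13, an endosomal J-protein, had 47.4 and 47.4 FPKM with vehicle and 48.7 and 47.0 FPKM with galectin-1, overlapping levels. Hspb11, named as a heat shock protein but a part of the transport machinery of cilia, had 7.58 and 5.50 FPKM with vehicle and 5.97 and 3.99 FPKM with galectin-1. Its replicates lay far apart in both groups (log2 difference -0.34, 95% confidence interval -0.82 to 0.14).

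**Figure D4:**
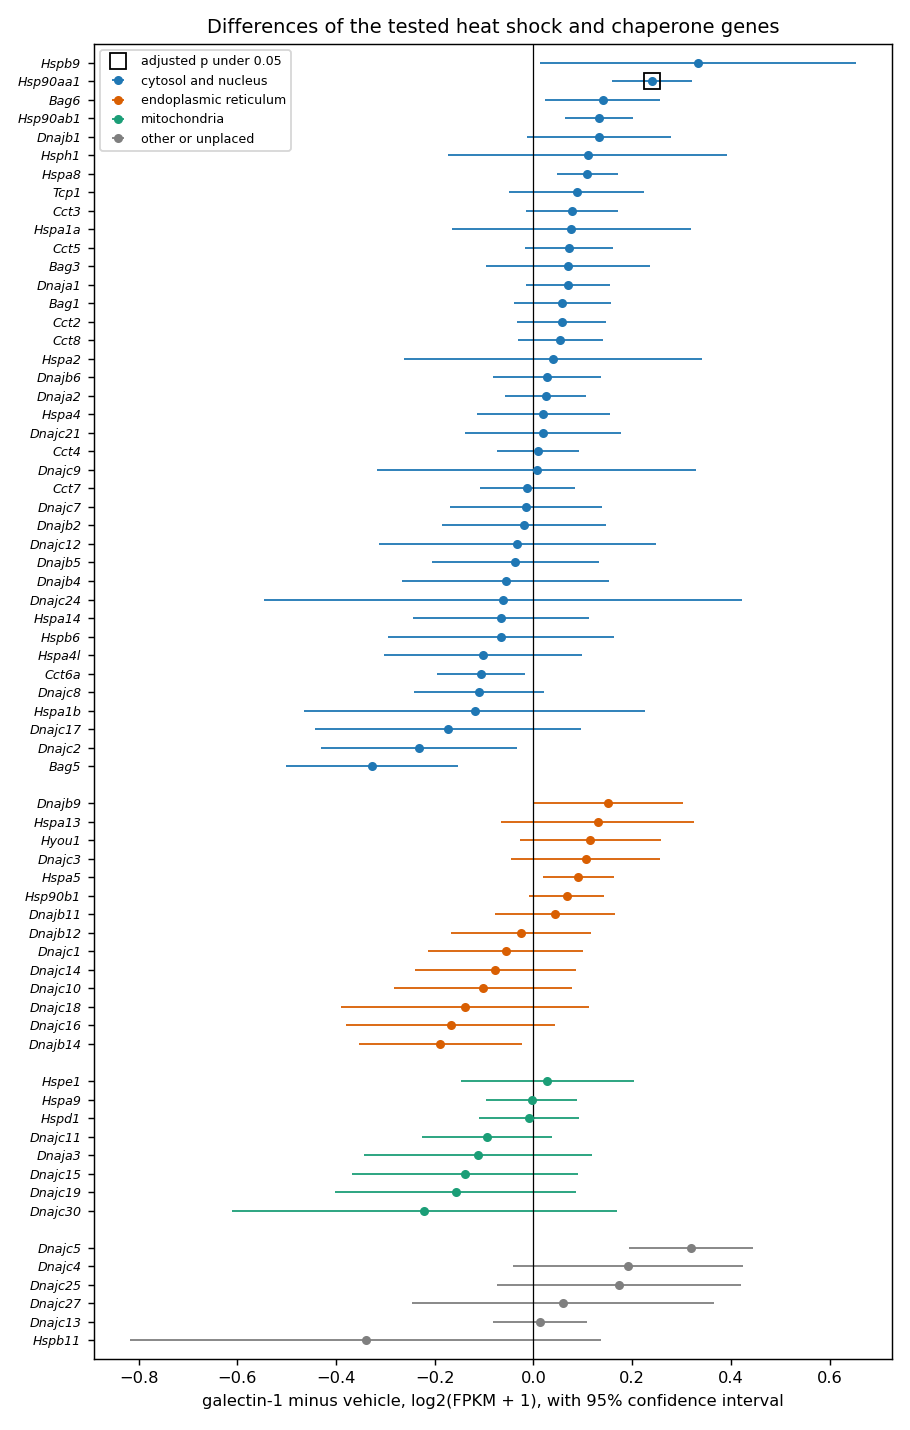
Log2 difference, galectin-1 minus vehicle, of log2(FPKM + 1) for the 67 tested members (points) with 95% confidence intervals from limma (bars), by compartment. The square marks Hsp90aa1, the member with an adjusted p under 0.05.

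The wider chaperone machinery of the cytosol was compared through 3 further lists, and none of their tested members passed in limma. Of 5 regulators of heat shock factors 4 were tested. Hsf1, the main heat shock factor, had 7.10 ± 0.158 FPKM with vehicle and 8.09 ± 0.862 FPKM with galectin-1 (0.16, limma adjusted p = 0.307), and Hsf2 had 4.005 ± 0.0604 and 4.55 ± 0.423 FPKM (0.15, limma adjusted p = 0.360). None of the 4 had an unadjusted p under 0.05. Of 21 co-chaperones of HSP70 and HSP90, 20 were tested, with 10 positive and 10 negative differences. An unadjusted p under 0.05 was found for 5, beside 23.2% of all tested genes. Groups were apart for 11, or 55.0%, beside 55.4% of all tested genes. Ahsa1, which activates the ATPase of HSP90, had 166 ± 1.36 FPKM with vehicle and 182 ± 5.16 FPKM with galectin-1 (0.13, limma adjusted p = 0.107). Stub1, the ubiquitin ligase CHIP that marks HSP70 clients, had 20.9 ± 0.346 and 18.7 ± 0.185 FPKM (-0.15, limma adjusted p = 0.138). Of the 6 prefoldin subunits, which hand nascent actin and tubulin to CCT, 5 differences were negative and the median was -0.09. An unadjusted p under 0.05 was found for 2, beside 23.2% of all tested genes. Pfdn6 (listed as H2-Ke2) had 29.1 ± 0.143 and 25.6 ± 0.132 FPKM (-0.18, limma adjusted p = 0.0948), and Pfdn4 had 15.3 ± 1.72 and 11.7 ± 1.40 FPKM (-0.37, limma adjusted p = 0.123).

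The sign of the differences varied with the level of the gene, among the members as among all tested genes. The 6 members with a mean of at least 100 FPKM all had positive differences, 5 of them without overlap, with a median of 0.10. Of all 854 tested genes at that level 69.2% were positive and 48.4% higher without overlap, with a median of 0.04. Of the 30 members between 1 and 10 FPKM, 40.0% were positive, beside 41.4% of 4843 tested genes. Between 10 and 100 FPKM the shares were 58.1% of 31 members and 58.6% of 3683 genes.

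**Figure D5:**
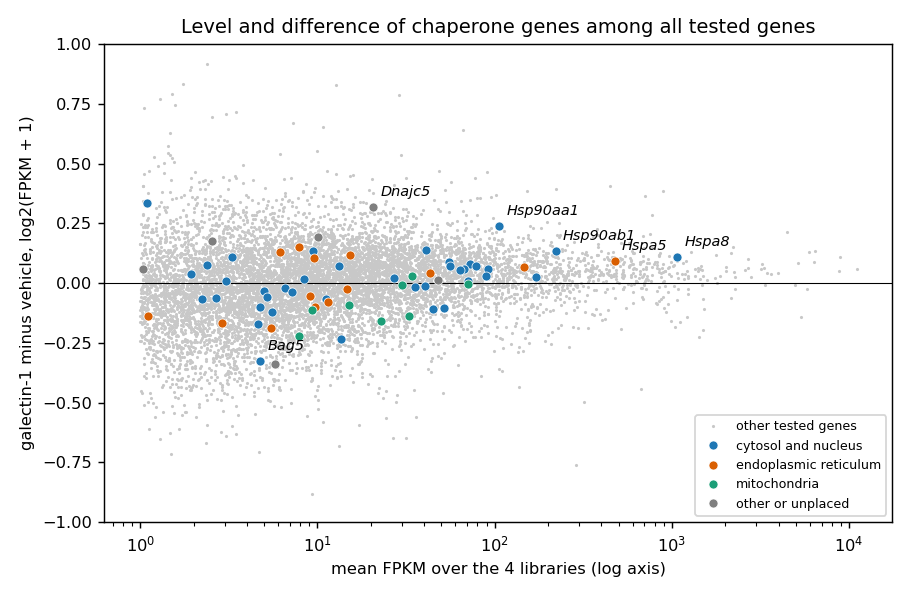
Mean FPKM over the 4 libraries (horizontal log axis) against the log2 difference, galectin-1 minus vehicle, for the 67 tested members coloured by compartment and all other tested genes in grey; 44 tested genes lie outside the vertical range. The most abundant members, Hspa8 and Hspa5, lie above 0, where 69.2% of all tested genes with at least 100 FPKM also lie.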

How the data were processed

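Libraries were made from macrophage RNA with a stranded mRNA kit, per the labels' protocols. Values were deposited by the authors as FPKM. Cufflinks 2.2.1, TopHat2 2.0.13, SAMtools 0.1.19, Bowtie2 2.2.3 and the build mm10 are listed, without roles, in the submitters' processing notes. The sources used here do not give the annotation, the use of strand or the treatment of multiply mapped reads. Counts were not used, so no interval for counting error is given.

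Sample titles gave the groups and replicate numbers. Members were found by symbol pattern, and their compartments and families were assigned by hand from general knowledge. The 9380 genes averaging 1 FPKM or more were compared as log2(FPKM + 1) with limma 3.58.1 in R 4.3.3 (empirical Bayes with trend, 2-sided, Benjamini-Hochberg over all tested genes, threshold 0.05, 2 residual and 3.89 prior degrees of freedom). Members and lists were chosen with earlier results of these data known. Named members were those past the threshold, the 4 of smallest p and 3 of highest level per compartment, and 18 fixed genes. Hspa13, Hspb6, Hspb9, Dnajc2, Bag6, Cct6a, Cct5, Cct7 and Cct8 were added after values were seen. So were Dnajc3, Dnajc16, Dnajc18, Dnajc27, Dnajb6, the small heat shock genes at 0 and the bins of level. Other lists were named by threshold or by 2 smallest p; Xbp1, Ddit3, Calr and Creld2 were added likewise. Of 128 list symbols 127 were found. Coordinates count from 1 and come from RefSeq GRCm38.p6, and strands and exon overlaps from GENCODE. Replicates correlated at 0.983 and 0.988 and libraries of different groups at 0.979 to 0.986 (Pearson, log2 values of tested genes), so the ranges overlapped; without small RNA entries the values were 0.997 and 0.998 against 0.995 to 0.996. No libraries were identical. Simulated data had the real means of the 9380 genes and normal noise with their limma-moderated spreads, not the observed ones. In each run 200 genes of any level were changed. The test recovered 17.8% of genes changed by 0.25, 76.0% by 0.5 and 99.7% by 1 on the log2 scale. False calls made up 14.4%, 5.94% and 5.77% of calls. The alternatives covered pseudocount, filters, scaling, variance model, small RNA entries, replicate block and left-out libraries.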

Additional observations from a re-analysis of the deposited data

How the results depend on the processing

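Each result was recomputed under 14 alternatives. The number of members called higher, 1 as reported, was 2 (Dnajc5 with Hsp90aa1) with a 5 FPKM minimum, with robust moderation, without small RNA entries and with the replicate block. It was 0 with no filter, with libraries scaled to a sum of 1000000, after quantile normalization, in limma without the trend and without any 1 library (0 to 0). No member was called lower in any fit. Of 30 tested named members, 20 kept their sign throughout.

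Over all tested genes, 57 higher and 55 lower as reported, the counts were 1 and 2 with no filter, 127 and 99 with a 5 FPKM minimum, 19 and 33 with libraries scaled to the same sum, 1 and 1 without the trend, 197 and 183 with robust moderation, and 189 and 176 without small RNA entries. Quantile normalization gave 24 higher and 47 lower, and leaving out 1 library 4 to 9 higher and 3 to 12 lower; of the calls, 50.9% were higher as reported, 36.5% with libraries scaled to the same sum and 33.8% after quantile normalization. With the replicate block the counts were 123 and 117; it left 1 residual degree of freedom. Whether same-numbered libraries were paired is not stated. The deviations of same-numbered libraries from their group means correlated at 0.01 over tested genes, which cannot decide it.

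The median log2 difference of all 67 members, 0.0135 as reported, was -0.0108 with libraries scaled to the same sum, -0.0071 after quantile normalization and -0.0013 to 0.0339 with 1 library left out. For the cytosol and nucleus the values were -0.0031, 0.0067 and 0.0132 to 0.0427 under these choices. For the endoplasmic reticulum the median was 0.0558 at 5 FPKM and above, -0.0151 with the same sum and 0.0020 to 0.0248 with 1 library left out, and for the mitochondria -0.1239 to -0.0025 with 1 left out. For the other members it was 0.1551 with a pseudocount of 0.1, 0.0249 with no filter, 0.1515 after quantile normalization and 0.0661 to 0.1676 with 1 library left out. The cause of these shifts was not tested.

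The sign turned for 10 named members. Scaling to the same sum gave -0.0108 for Dnajc13, and quantile normalization gave -0.0194 for Dnajc13 and -0.0163 for Dnaja2. With 1 library left out the log2 differences ran from -0.0025 to 0.0518 for Dnaja2, -0.0110 to 0.0381 for Dnajc13, -0.0058 to 0.1457 for Bag3, -0.3242 to 0.0859 for Hspa1b, -0.0285 to 0.2478 for Hsph1, -0.0094 to 0.0974 for Dnajb11, -0.4586 to 0.0170 for Dnajc30, -0.0338 to 0.0268 for Hspa9, -0.0220 to 0.0041 for Hspd1 and -0.0679 to 0.1248 for Hspe1. With 2 libraries per group, genes simulated with a change of 0.25 were called in 17.8% of cases, and the absolute depth is unknown.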
